A study of Petrolisthes cinctipes with 164 samples.

Results

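In the porcelain crab Petrolisthes cinctipes, 21 of 13818 microarray probes had lower signal in heatstressed than in control crabs at 1 and 2 h of recovery and higher signal at 24 and 30 h. They were found with a stated rule on the expression differential, which is the log2 signal of a heatstressed crab minus that of the control crab with the same time and replicate number. A probe was kept when its mean differential over the 9 pairs of 1 and 2 h and its mean over the 10 pairs of 24 and 30 h had opposite signs and both were at least 0.25 in size. The rule leaves out 6 listed probes and keeps at most 60. Exactly 21 probes passed it whether or not the 6 were left out, and 0 passed it in the other direction.

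The heatstressed crabs, taken from the field, were brought to 30 C by steady warming during 4 h, starting at 11 C, while control crabs stayed at 11 C. Recovery took place at 11 C with both treatments in the same tank. RNA of each crab was hybridised on 2 two-colour arrays with the dyes exchanged, each array carrying the heatstressed and the control crab of a pair, and both arrays were averaged. There were 41 heatstressed and 41 control crabs, with n = 5 pairs at each recovery time but for 1 and 6 h (4 pairs) and 4 h (3 pairs). The recovery times were 0.5, 1, 2, 4, 6, 12, 18, 24 and 30 h.

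The labels name no tissue, sex or age, and the probes are known here only by their position on the printing plates, so neither the tissue nor the genes behind the 21 probes could be checked. On cDNA arrays of this kind, several probes can carry copies of the same transcript, so the 21 probes need not stand for as many genes.

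Porcelain crabs live under stones on wave-swept shores, where low tide on a warm day can raise body temperature quickly. In animals generally, acute heat leads cells to make chaperones within minutes to hours, while synthesis of many other proteins slows. In the hours after a return to normal temperature, cells turn to replacing damaged proteins and restoring growth and metabolism, so a transcript can be low early and high late in the same recovery.

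A few pairs stood apart before any result on the 21 probes was drawn. Probe Pc01Hi06, picked with its values known because it responds strongly to heat, had differentials of 2.90, 3.52, 3.25 and 3.45 in pairs 1 to 4 of 0.5 h and -3.87 in pair 5. At 6 h it had -4.10 in pair 1 and 3.72, 4.21 and 3.60 in pairs 2 to 4. At 4 h it had 0.02, 3.14 and -0.25 in pairs 1 to 3, so pairs 1 and 3 showed little difference between treatments. Pair 5 of 0.5 h and pair 1 of 6 h thus ran against the other pairs of their time. A second probe of the same kind, Pc28Ge22, gave -4.01 in pair 5 of 0.5 h and -3.03 in pair 1 of 6 h. In pairs 1 and 3 of 4 h it gave 0.45 and 0.03. In addition, the title and the description of a sample name opposite treatments for 20 of 164 samples, namely both arrays of 6 crabs (pair 2 of 4 h and pairs 3 and 4 of 6 h) and array b of pair 5 at 12, 18, 24 and 30 h. In pair 2 of 4 h and pairs 3 and 4 of 6 h, Pc01Hi06 and Pc28Ge22 were high in the crab that the title calls heatstressed, with differentials of 3.14 and 3.17 at 4 h and of 3.60 to 4.21 at 6 h. Without array b of pair 5 at 24 and 30 h the rule kept the same 21 probes. The title was followed throughout. For some results, values are also given with the description's treatment in the 6 conflicting crabs, or without a doubted pair. Pair 5 of 0.5 h and pair 1 of 6 h were left out in places but never turned round.

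The 21 probes had mean differentials of -0.75 to -0.30 over 1 and 2 h, with a median of -0.45. Over 24 and 30 h the same probes had 0.81 to 1.11, with a median of 0.96. The 21 probes were chosen by these values, the measured differentials of 1, 2, 24 and 30 h, so the values are a description and carry no test. Because total RNA of each crab was measured, less RNA per cell and fewer cells of a type cannot be told apart in any of the differences below.

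The widest gap between early and late was at Pc06Wn13, with mean differentials of -0.75 and 1.07. Pc06Wg15 followed with -0.66 and 1.08, and Pc29Gi09 with -0.60 and 1.11. Pc02Ho03 had -0.57 and 1.08, and Pc31Hl14 had -0.50 and 1.05. In all 5, the late differential was larger in size than the early one. The same was true of the smallest gap, at Pc15Pj12, with -0.33 and 0.81.

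Every member had a late mean of at least 0.81, so the early limit of the rule was the one that members came near. Probes low enough early but just short of the late limit are not listed. The members nearest to the early limit were Pc26Gj03, with -0.30 early and 0.87 late, and Pc05Wg08, with -0.32 and 0.89. Just outside were Pc20Gf09, with -0.21 and 0.43, and Pc28Gi22, with -0.18 and 0.85. In the other direction the nearest probe was Pc06Wn19, with 0.38 early and -0.17 late.

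Among all probes, 175 had an early mean at or below -0.25, of which 21 were at or above 0.25 late and 95 were still at or below -0.25. Another 214 probes had an early mean at or above 0.25, of which 0 were at or below -0.25 late and 103 were still at or above 0.25. With both arrays and means over pairs, a turn from low to high was thus the one found. This depended on how pairs and arrays were combined. Medians over pairs gave 11 probes in the other direction of 31 found. Array a alone gave 45 of 60 and array b alone 3 of 60, and 60 is the most the rule keeps. At these times the heatstressed crab was labelled with Cy5 on array a and Cy3 on array b. On a single array, dye and treatment therefore cannot be told apart.

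**Figure D1:**
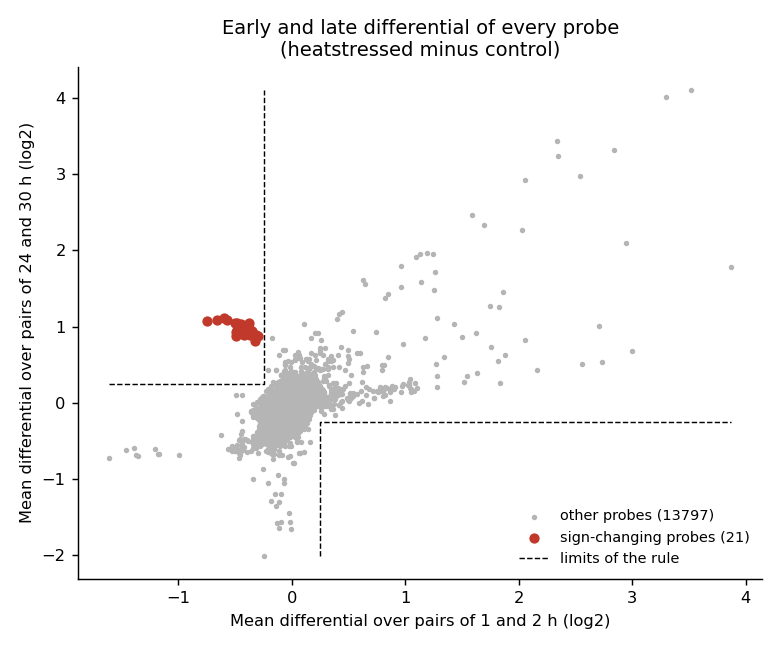
Mean differential (log2, heatstressed minus control) of each probe over the 9 pairs of 1 and 2 h on the x axis and over the 10 pairs of 24 and 30 h on the y axis, with the 21 sign-changing probes in colour and dashed lines at 0.25 and -0.25. All 21 lie in the upper left corner, between -0.75 and -0.30 early and between 0.81 and 1.11 late, and the lower right corner is empty.

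Within each pair the 21 probes moved nearly as a block. At 1 h their mean differential was -0.13, -0.74, -0.38 and -0.88 in pairs 1 to 4. At 2 h it was -0.38, -0.34, -0.30, -0.40 and -0.56. The mean was therefore below 0 in every pair of both times, and the 2 h pairs lay closer together, with -0.40 ± 0.096 (SD, n = 5), than the 1 h pairs, with -0.53 ± 0.34 (SD, n = 4). As folds these means are 0.759 at 2 h and 0.692 at 1 h.

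At 24 h the mean differential of the 21 probes was -0.31, 0.27, 1.34, 0.49 and 0.69. At 30 h it was 1.04, 0.64, 1.70, 1.68 and 2.19. The late mean was thus above 0 in every pair but 1, pair 1 of 24 h, in which all 21 probes were lower in the heatstressed than in the control crab. The 24 h mean was 0.50 ± 0.60 (SD, n = 5), a fold of 1.41, and the 30 h mean was 1.45 ± 0.61 (SD, n = 5), a fold of 2.73.

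Member by member, the 30 h differential was 1.24 to 1.65 and above 0 in all 5 pairs for all 21 probes. At 24 h it was 0.37 to 0.70, with 4 of 5 pairs above 0 for every probe. At 1 h it was -0.77 to -0.29 and at 2 h -0.74 to -0.19, and 18 of the 21 probes were below 0 in every pair at each of these times. Over all probes, a single sign in every pair was seen for 10.7% (1 h), 6.4% (2 h), 9.1% (24 h) and 7.1% (30 h). The rule used these crabs, so nothing is read from the difference.

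For Pc06Wn13 at 1 h, the log2 signal was 9.39, 9.30, 9.60 and 9.15 in heatstressed crabs and 9.56, 10.37, 10.24 and 10.35 in control crabs. At 2 h it was 11.68, 9.51, 9.66, 8.78 and 9.63 in heatstressed crabs and 12.46, 10.04, 10.32, 9.53 and 10.59 in control crabs. Each heatstressed crab was below its own control, but the groups overlap at both times. Both crabs of pair 1 of 2 h were far above the rest.

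At 24 h Pc06Wn13 had 12.70, 11.85, 13.45, 11.81 and 12.60 in heatstressed crabs and 12.97, 11.47, 11.85, 11.29 and 12.11 in control crabs. At 30 h it had 12.22, 14.04, 12.81, 13.82 and 13.74 in heatstressed crabs and 10.78, 13.41, 10.86, 12.25 and 11.34 in control crabs. The pair differences at 30 h were 1.43, 0.63, 1.95, 1.57 and 2.40. All 5 were above 0, although the control crab of pair 2 was above 2 of the 5 heatstressed crabs on this scale. The scale carries the brightness of each array, which differed between arrays: the median over all probes in a channel was 6.77 to 9.17.

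Pc02Ho03 gave pair differences of -0.12, -0.90, -0.45 and -1.11 at 1 h and 1.40, 0.76, 1.77, 1.77 and 2.52 at 30 h. Pc15Pj12, the member with the smallest gap, gave -0.16, -0.44, -0.03 and -0.55 at 1 h and 0.49, 0.57, 1.36, 1.55 and 2.22 at 30 h. Pair 4 was lowest at 1 h and pair 5 highest at 30 h in both probes.

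**Figure D2:**
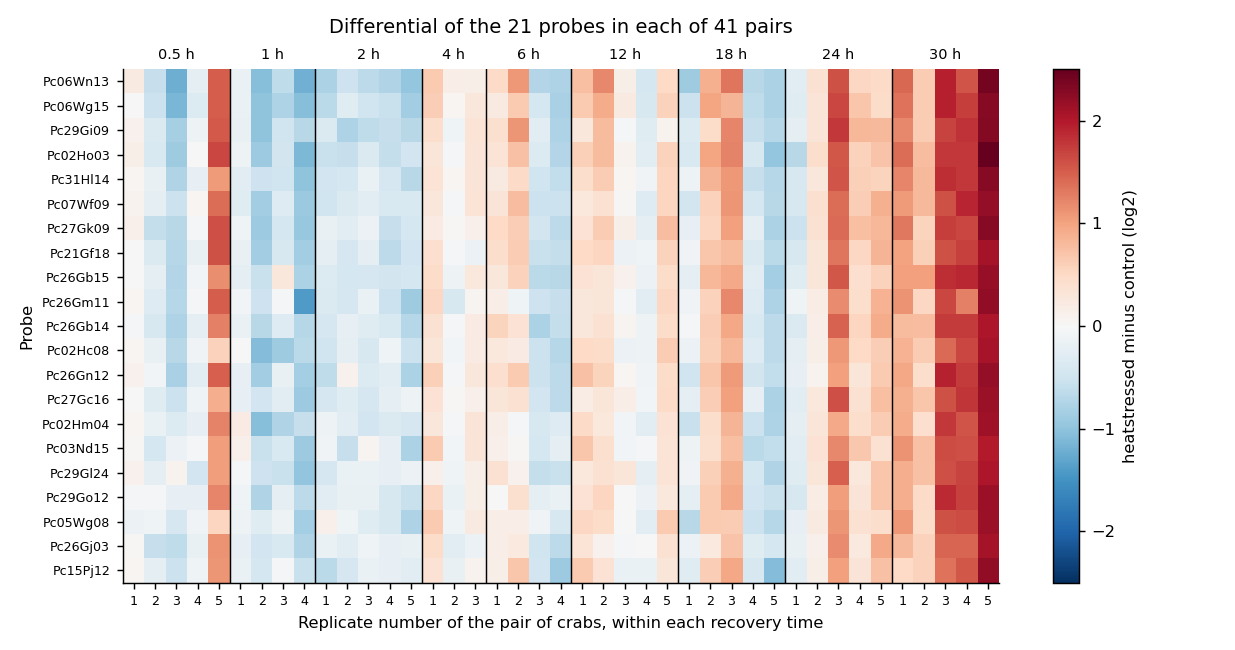
Differential (log2, heatstressed minus control, colour scale) of each of the 21 probes (rows, ordered by the gap between early and late) in each of the 41 pairs (columns, ordered by hours of recovery). Columns are nearly of 1 colour, blue at 1 and 2 h, red at 30 h, and of either colour in different pairs of 0.5, 6, 12, 18 and 24 h.

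The 5 time points that the rule did not use hold 22 pairs, and the 21 probes gave no uniform direction there. At 0.5 h their mean differential was 0.045, -0.31, -0.63, -0.15 and 1.24 in pairs 1 to 5, a mean of 0.039 ± 0.72 (SD, n = 5). Pair 5, in which Pc01Hi06 also ran the other way, was the only one well above 0. Without it, the median of the 21 probes at 0.5 h was -0.26, against 0.063 with it.

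At 4 h the mean differential was 0.43, -0.07 and 0.19, or 0.18 ± 0.25 (SD, n = 3). Pairs 1 and 3, the pairs above 0, are those with little difference in Pc01Hi06 and Pc28Ge22. At 6 h it was 0.29, 0.46, -0.48 and -0.60, or -0.082 ± 0.54 (SD, n = 4). The 6 h pairs below 0 are pairs 3 and 4, in which title and description disagree on the treatment and in which Pc01Hi06, with 4.21 and 3.60, follows the title. With the treatment of the description the median of the 21 probes at 6 h was 0.53, against -0.10 with the title, and without pair 1 it was -0.21.

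At 12 h the mean differential was 0.45, 0.51, 0.031, -0.20 and 0.47, or 0.25 ± 0.32 (SD, n = 5). At 18 h it was -0.31, 0.64, 0.97, -0.44 and -0.73, or 0.027 ± 0.74 (SD, n = 5). The 18 h pairs fell on both sides of 0 the nearest to it at -0.31, and in every one of these 5 pairs all 21 probes had the same sign.

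None of the 21 probes passed the test at a time the rule did not use. In limma's test across all probes, with Benjamini-Hochberg adjustment and an adjusted p under 0.05, 0 of 21 members passed at 0.5 h, where 0% of all probes did, and 0 of 21 at 4 h and at 6 h, where the share was also 0%. At 12 h 0 of 21 passed, against 0.0579% of all probes, and at 18 h 0 of 21 passed, against 0.188%. With the replicate pair as a block these shares were 0% at 0.5, 4 and 6 h, 0.0507% at 12 h and 0.579% at 18 h, and again 0 members passed. At an unadjusted p under 0.05 the count of members was 0 at each of the 5 times in both fits. Since no probe at all passed at 0.5, 4 and 6 h, the 0 there says nothing particular about the members. Pair 5 of 0.5 h and pair 1 of 6 h were part of these fits. With the block and without those pairs some probes passed at 0.5 and 6 h, as given in the last section.

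The median differential of the 21 probes, in order of time, was 0.063 (0.5 h), 0.19 (4 h), -0.10 (6 h), 0.22 (12 h) and 0.04 (18 h). Over all probes the median was between -0.007 and 0.012 at these times. All 21 members had a mean above 0 at 4 h and at 12 h, and 13, 5 and 15 did at 0.5, 6 and 18 h. At 4 h this came mainly from pairs 1 and 3, in which Pc01Hi06 and Pc28Ge22 showed little difference between treatments. The SE of a single member's differential at 0.5, 12 and 18 h was 0.35 to 0.64 without the block. With the pair as a block it was 0.20 to 0.31. In neither fit could values of this size be told from 0 with these numbers of crabs.

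At 4 h, 5 of the 21 members had a single sign in every pair, against 23.4% of all probes. At 0.5, 6, 12 and 18 h 0 members did, against 6.71%, 8.94%, 8.66% and 9.34% of all probes. With the description's treatment in the 6 conflicting crabs, which goes against Pc01Hi06 and Pc28Ge22, these counts were 14 at 4 h, against 21.7% of all probes, and 19 at 6 h, against 14.9%. Leaving out a single pair can only keep or raise such a count. Over these omissions it ran from 0 to 11 at 12 h, 5 to 19 at 4 h and 0 to 7 at 0.5 h. The 11 came without pair 4 of 12 h, against 14.6% of all probes. The 19 came without pair 2 of 4 h, which leaves 2 pairs, against 45.2%. These were the only pairs of their times with a mean of the 21 probes below 0, so nothing is read from the rise. Pc01Hi06 was above 0 in all 5 pairs of 12 h, and at 4 h it was high only in pair 2. Without pair 5 of 0.5 h the count was 7, against 16.6%.

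A late against early change was also asked of crabs the rule had not used, as the mean differential of 12 and 18 h minus that of 0.5 h. The 21 probes had changes of -0.095 to 0.29 with a median of 0.11, and 18 of 21 were above 0. In limma's test 0 of 21 passed, against 0% of all probes, and 0 had an unadjusted p under 0.05, with and without the block. Since no probe at all passed, the count of those that passed says nothing particular about the members. For Pc06Wn13 the change was 0.26 with an SE of 0.65 and an adjusted p of 1.00, and it was 0.65 without pair 5 of 0.5 h. For Pc06Wg15 it was 0.29 with an SE of 0.78. These SEs ignore the pairing. With the pair as a block the SE was 0.39 for Pc06Wn13 and 0.34 for Pc06Wg15. With all pairs included no turn could be measured in these crabs, at an SE that is larger than the median in both fits. Without pair 5 of 0.5 h the change was 0.39 to 0.69 in the 5 members with the widest gap. Still 0 members passed when any single pair was left out. The median of all 21 without pair 5 is not given here.

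For the times that the rule used, only the share of all probes that passed is given, since a count of members would restate the choice. Without the block it was 0.116% (1 h), 0.101% (2 h), 0.109% (24 h) and 0.123% (30 h), and with the block 0.666%, 0.427%, 0.608% and 1.61% at the same times.

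**Figure D3:**
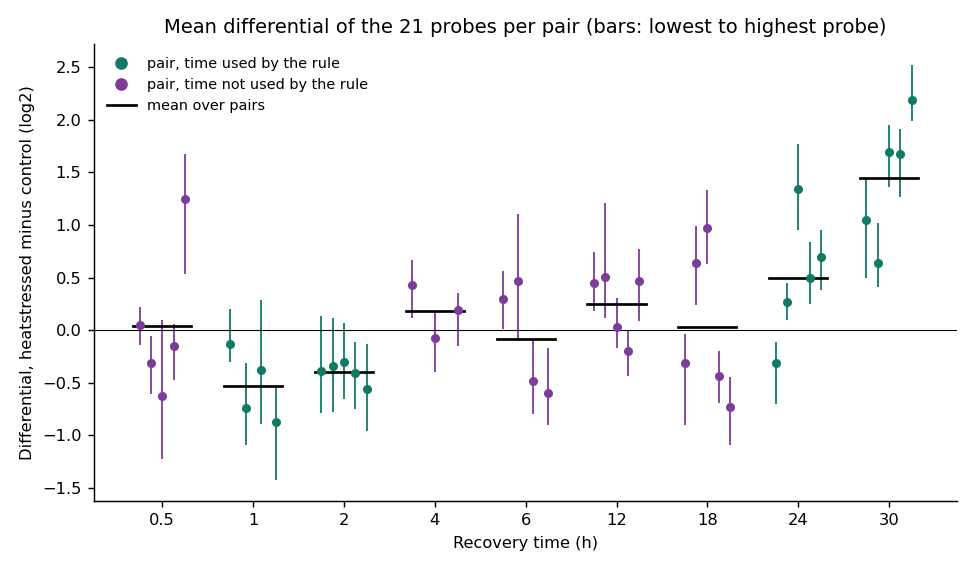
Mean differential over the 21 probes (log2, heatstressed minus control) in each pair (points, with bars from the lowest to the highest probe) at each recovery time (h), with the mean over pairs as a horizontal line and the times used by the rule in green. Pairs sit between -0.88 and -0.13 at 1 h, between -0.56 and -0.30 at 2 h and between 0.64 and 2.19 at 30 h, and on both sides of 0 at every other time.

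The 2 arrays of a pair were read separately as a check on the measurement. At the times the rule did not use, the mean differential of the 21 probes had the same sign on both arrays in 19 of 22 pairs. At the other times the choice of the probes favours such agreement, and it is not counted. Over all 41 pairs the median difference between both arrays was 0.306 in size. The largest was 1.70, in pair 1 of 30 h, where array a gave 0.20 and array b gave 1.89. In pair 2 of 30 h array a gave 0.052 and array b 1.23. The other 3 pairs of 30 h had 1.39 or more on both arrays.

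The levels behind the differential of the 21 probes differed between times in both treatments. To set levels of different arrays side by side, each channel was shifted so that its median over all probes was the same, and the mean over the 21 probes was taken per crab. The shift removes only a difference in overall brightness. Each time had its own crabs and arrays, so a change with time cannot be told apart from other differences between arrays. At 0.5 h this level was 8.78 ± 0.73 in heatstressed and 8.75 ± 0.27 in control crabs (log2, SD, n = 5 each). At 1 h it was 8.65 ± 0.11 in heatstressed and 9.18 ± 0.33 in control crabs (SD, n = 4 each). The 1 h groups did not overlap, with 8.52 to 8.78 in heatstressed and 8.89 to 9.54 in control crabs. The rule used these 1 h crabs, so the choice of probes favours this and nothing is read from it.

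At 2 h the level was 8.69 ± 0.43 in heatstressed and 9.10 ± 0.41 in control crabs, at 4 h 8.99 ± 0.39 in heatstressed and 8.79 ± 0.29 in control crabs, and at 6 h 9.37 ± 0.30 in heatstressed and 9.46 ± 0.68 in control crabs. At 12 h it was 9.40 ± 0.43 in heatstressed and 9.16 ± 0.64 in control crabs, and at 18 h 10.09 ± 0.50 in heatstressed and 10.06 ± 0.77 in control crabs. These groups overlap, and the mean of both treatments stood higher at 18 h than at 0.5 h.

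At 24 h the level was 10.84 ± 0.35 in heatstressed and 10.33 ± 0.61 in control crabs, and at 30 h 11.66 ± 0.40 in heatstressed and 10.22 ± 0.44 in control crabs (SD, n = 5 each). The 30 h groups did not overlap, with 11.04 to 12.05 in heatstressed and 9.89 to 10.96 in control crabs. The rule used these crabs too, so this is a description and not a test. Between 0.5 and 30 h the mean level differed by 2.88 in heatstressed and by 1.47 in control crabs. Between 24 and 30 h it differed by 0.82 in heatstressed and by -0.11 in control crabs. The early and late differentials were thus set against controls that were themselves higher late than early.

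**Figure D4:**
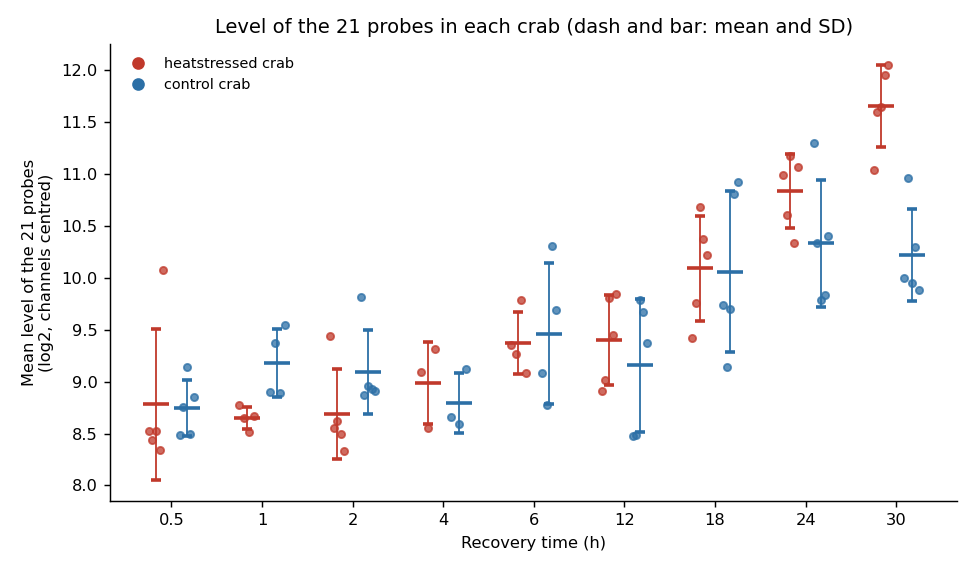
Mean centred log2 level of the 21 probes in each heatstressed crab and each control crab at each recovery time (h), with the mean (dash) and SD (bar) of each group. Both treatments are higher late than early, and the crabs of the treatments do not overlap at 1 h (8.52 to 8.78 in heatstressed, 8.89 to 9.54 in control) or at 30 h (11.04 to 12.05 in heatstressed, 9.89 to 10.96 in control). The probes were chosen by the crabs of these times, so the separation is a description.

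The difference of level between times within a treatment was tested at times the rule had not used, as the mean of 12 and 18 h minus 0.5 h. It holds any difference between the arrays of these times too. On the deposited scale the 21 probes had a median change of 0.79 in heatstressed crabs, with 20 of 21 above 0, and of 0.74 in control crabs, with 19 of 21 above 0. The median over all probes was -0.33 in heatstressed and -0.33 in control crabs, so arrays of these times differed in overall brightness. In limma's test 0 of 21 members passed in heatstressed crabs, against 9.89% of all probes (66 probes higher and 1300 lower), and 0 of 21 in control crabs, against 9% (35 higher and 1208 lower). At an unadjusted p under 0.05 the counts were 9 of 21 members in heatstressed crabs, against 31.5% of all probes, and 7 of 21 in control crabs, against 30.2%.

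With channels centred on their medians the member counts changed. In heatstressed crabs 7 of 21 passed, all higher at 12 and 18 h than at 0.5 h, against 4.94% of all probes (413 higher and 270 lower). In control crabs 3 of 21 passed, all higher, against 3.69% (305 higher and 205 lower). The 7 were Pc06Wn13, Pc31Hl14, Pc26Gm11, Pc26Gb14, Pc02Hc08, Pc02Hm04 and Pc05Wg08, and the last 3 of these were those that passed in control crabs. These probes are named because they passed, after their values were seen.

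On the centred scale Pc06Wn13 was higher by 1.59 (SE 0.41, limma's adjusted p = 0.015) in heatstressed crabs and by 1.33 (SE 0.41, adjusted p = 0.052) in control crabs. Pc02Hc08 was higher by 1.47 (SE 0.34, adjusted p = 0.0063) in heatstressed and by 1.24 (SE 0.34, adjusted p = 0.027) in control crabs. The difference between both treatments is the change of the differential above, which did not pass for any member. Pc03Nd15 was the exception among the 21, with -0.18 in heatstressed and -0.20 in control crabs (SE 0.43 each).

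The members are not independent of each other, so these counts are not counts of separate results. Over the unused crabs the centred levels of 2 members correlated at a median of 0.71 in heatstressed and 0.76 in control crabs. Pair 5 of 0.5 h weighs on the counts as well. Without it and with centred channels, 15 of 21 members passed in heatstressed crabs, against 8.25% of all probes, and 6 of 21 in control crabs, against 6.43%. Pc06Wn13 was then higher by 2.26 in heatstressed crabs (SE 0.39, limma's adjusted p = 9.46e-05) and by 1.61 in control crabs (SE 0.39, adjusted p = 0.0065). Of the 3 probes that had passed in control crabs, Pc02Hm04 still did, with 1.00 (SE 0.29, adjusted p = 0.026). Pc02Hc08, with 0.99 (SE 0.36, adjusted p = 0.086), and Pc05Wg08, with 1.20 (SE 0.46, adjusted p = 0.10), did not.

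The 21 probes kept their likeness in the 22 pairs the rule did not use. Over these pairs the correlation of the differential between 2 members was 0.76 to 0.98 with a median of 0.92 (210 member pairs, n = 22 crab pairs each). Each member against the mean of the remaining members gave 0.88 to 0.99. The other 13797 probes correlated with the mean of the 21 at a median of -0.035, with 99 of 100 of them below 0.56. With the time point means removed the member correlations were 0.79 to 0.98 with a median of 0.93. These are descriptions without a test, and the points share arrays, labelled RNA and pairs.

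The probe most like the 21 that was not among them was Pc20Gf09, with a correlation of 0.92, the only other probe at or above the lowest member. It was followed by Pc28Gi22 with 0.81, Pc26Gc16 with 0.81, Pc02Ho10 with 0.79 and Pc01Ha18 with 0.79. The first pair of these are also the probes given above as just outside the early limit. Pc02Ho10, by contrast, had an early mean of 0.11 and a late mean of 0.24.

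Levels were less alike than differentials. Over the 22 unused heatstressed crabs the correlation of centred levels between 2 members was -0.0074 to 0.95 with a median of 0.71, and over the 22 control crabs it was 0.16 to 0.97 with a median of 0.76. The 21 probes thus shared their differences between paired crabs more closely than their levels across crabs. Likeness in level was also not particular to them. Of the other 13797 probes, 2972 in heatstressed and 1374 in control crabs correlated with the mean level of the 21 at or above the lowest member. For the differential only Pc20Gf09 did.

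**Figure D5:**
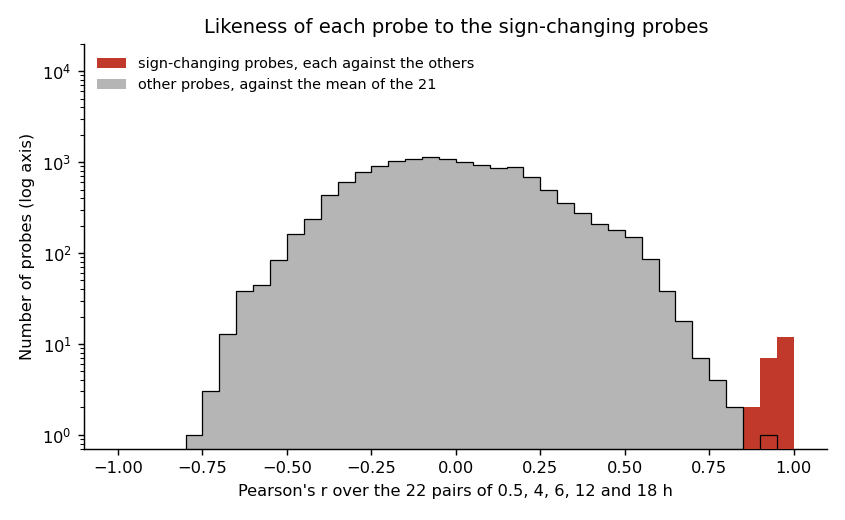
Histogram of correlations (Pearson's r) of the differential over the 22 pairs of 0.5, 4, 6, 12 and 18 h, for each of the 21 probes against the mean of the remaining members (0.88 to 0.99) and for the other 13797 probes against the mean of the 21 (median -0.035, outlined), with the number of probes on a log axis. A single other probe, Pc20Gf09 at 0.92, lies within the range of the members.

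The 21 probes also varied more between pairs than most probes. At the unused times the SD of the differential within a time was 0.46 to 0.87 with a median of 0.60, against a median of 0.22 over all probes. This put the members between the 91.0 and the 99.2 percentile of all probes. By mean signal the members were between the 59.3 and the 88.0 percentile, and probes of like signal were not compared. A rule that asks for early and late means of at least 0.25 in size can itself favour probes that vary widely between pairs. The spread is therefore a description and is not read as a trait of the set. The SD of the centred level within a time was a median of 0.70 in heatstressed and 0.71 in control crabs, against 0.35 in both treatments over all probes. Control crabs of 1 time thus differed in these probes about as much as heatstressed crabs did.

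None of the 6 probes left out by the rule would have met its threshold. Pc01Hc13, for example, had a mean differential of -1.64 at 1 h and of -0.60 at 30 h, below 0 at both. Over the 22 unused pairs the mean of the 21 correlated at 0.54 with the mean of these 6 and at -0.51 with Pc01Hi06, values that include pair 5 of 0.5 h and pair 1 of 6 h.

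By position the 21 probes came from 11 of 36 plates. Probes with the letter G after the plate number made up 11 of the 21 (52.4%), against 16.7% of all probes, and plate 26 alone held 5 (23.8%), against 2.78% of all. The letter H accounted for 4 of the 21, against 36.1% of all probes. The meaning of the letters is not given in the sources used here. Pc26Gb14 and Pc26Gb15 are neighbours on their plate, and whether any of the 21 probes carry the same transcript was not tested.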

How the data were processed

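Total RNA of each crab was labelled with Cy3 and Cy5 on 2 two-colour cDNA arrays. The deposited values are log2 signals of 13818 probes in 164 channels, as processed by the authors; their background correction and normalization are not given in the sources used here, and no value was missing. Groups and pairs were taken from sample titles. Both channels of a crab were averaged, so that n counts crabs, and precision is limited by how many arrays there were.

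Differentials were computed per pair in Python 3.11.15 with pandas 2.3.3, and limma 3.58.1 in R 4.3.3 was fitted to all 82 crabs and all probes with group means, eBayes and Benjamini-Hochberg adjustment, without a block. The scripts were tested on simulated data. Crabs with the same time and number shared arrays, and their deviations from group means correlated in all 41 pairs (0.44 to 0.94, median 0.745), so the numbers pair the crabs and a fit with the pair as a block is given where it changes a result. Alternatives were channel centring, quantile normalization, omission of the dimmest 25% of probes, each array alone, other thresholds, and omission of each pair. Those combining the block or centring with the omission of a doubted pair, the block at 1, 2, 24 and 30 h, and those on single signs were chosen after seeing the data.

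Named probes are the 5 members with the widest gap, members past the threshold of a test, and those nearest to the rule's threshold; Pc15Pj12, Pc02Hc08, Pc03Nd15, Pc01Hi06 and Pc01Hc13, and the probes passing on centred channels, were added with their values known. The rule, the members and the lists were chosen with earlier results of these data known. Probe identifiers were not matched to genes or sequences here.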

Additional observations from a re-analysis of the deposited data

Results flagged for a closer look

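In 3 of 24 groups of crabs or pairs, 1 value lay far from the others by Dixon's test, which chance does in about 1 in 20 independent groups. These groups are not independent, since the differential is the difference of both levels and the crabs of a pair share arrays. The count is therefore not weighed against that share. The heatstressed crab of pair 5 at 0.5 h had a mean centred level of the 21 probes of 10.08, against 8.34 to 8.53 in the other heatstressed crabs of that time. Its gap of 0.893 of the range was above the critical value of 0.71. In pair 1 of 2 h both crabs stood high, with 9.44 in the heatstressed crab against 8.33 to 8.62 in the other heatstressed crabs (gap 0.740), and 9.82 in the control crab against 8.87 to 8.95 in the other controls (gap 0.911). Because both crabs of that pair were high, its differential of -0.38 was within the range of the other pairs of 2 h.

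Every pair of 1 h (mean -0.53, pairs -0.88 to -0.13) and of 2 h (mean -0.40, pairs -0.56 to -0.30) lay on the other side of 0 from every pair of 30 h (mean 1.45, pairs 0.64 to 2.19). The 21 probes were chosen for this turn, and the difference was not tested.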

How the results depend on the processing

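The set held 21 probes with centred or quantile-normalized channels, without the dimmest 25% of probes, or without array b of pair 5 at 24 and 30 h, and 20 to 26 without single pairs. It held 60, the most the rule keeps, on array a alone (15 shared, 45 in the other direction) and on array b alone (20 shared, 3 in the other direction). At these times each array alone has the heatstressed crabs in a single dye. It held 5 at a threshold of 0.5. With medians over pairs it held 31 (19 shared, 11 in the other direction). Over all probes, the replicate block gave 80 calls at 18 h against 26 without it, and 92, 59, 84 and 222 at 1, 2, 24 and 30 h against 16, 14, 15 and 17. It gave 35 at 0.5 h without pair 5 and 71 at 6 h without pair 1, against 0 at both. At 12 h centring gave 15, quantile normalization 17 and the crabs of 12 h alone 17, against 8. The level contrasts gave 683, 559 and 115 calls in heatstressed crabs, and 510, 379 and 83 in control crabs, with centring, with quantile normalization and without dim probes, against 1366 and 1243; no paired form exists for them. Without single pairs the calls were 65 to 4054 in heatstressed and 24 to 3911 in control crabs (the highest without pair 5 of 0.5 h), 0 to 6 at 0.5 h, 0 to 15 at 6 h, 1 to 6 at 12 h and 13 to 23 at 18 h. Single-sign members were then 0 to 7, 5 to 19, 0 to 2 and 0 to 11 at 0.5, 4, 6 and 12 h, and 14 and 19 at 4 and 6 h with the description's treatment, which gave a 6 h median of 0.53. Of 120 alternatives for the count of members called at unused times, 107 gave 0; the exceptions were level contrasts. The change of the differential crossed 0 without single pairs for Pc06Wn13 (-0.031 to 0.65), Pc29Gi09 (-0.20 to 0.39) and Pc02Ho03 (-0.14 to 0.50). The cause was not tested.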
